A study of Mus musculus with 2 samples.

Results

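The microRNAs described here lie inside protein-coding genes of lipid, coenzyme A and mitochondrial metabolism. Mir33 lies in Srebf2, Mir107 in Pank1, Mir103-2 in Pank2, Mir103-1 in Pank3, and the entry Gm25301 covers Mir378a of Ppargc1b on its opposite strand. They were chosen by gene name and host, not by a threshold on level, though earlier results of these data were known. They make up 5 of the 1973 microRNA genes in the count tables. Small RNA under 30 bases was sequenced from lungs of B6NCrl mouse embryos at embryonic day 16.5. The single group held 2 biological replicates from untreated, healthy embryos, each a pool of lungs from males and females. Replicate 2 came from 41 embryos, and the labels give no such number for replicate 1. No other tissue, age or treatment was measured here, so levels could be compared among genes and between the 2 libraries only. Whole lung holds many cell types, and fewer cells of a type cannot be told apart from less RNA per cell.

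A microRNA inside an intron on its host's strand is usually cut from the host's own transcript, so host and microRNA can be made together. Srebf2 encodes the transcription factor that drives genes of cholesterol synthesis and uptake, and miR-33 represses the cholesterol exporter Abca1. The Pank genes encode pantothenate kinases, which start the synthesis of coenzyme A, the acyl carrier of fatty acid metabolism, and miR-103 and miR-107 are known for lowering insulin sensitivity in liver and fat through Cav1. Ppargc1b encodes a coactivator of mitochondrial biogenesis and fatty acid oxidation, and miR-378a acts on mitochondrial metabolism. In the lung, lipid synthesis supplies the surfactant that epithelial cells make before birth.

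The mature sequences show which of these genes can be told apart by their reads. They are printed 5′ to 3′ with the seed (bases 2 to 8, which pair with targets) in capitals, from RefSeq's GRCm38.p6 table, where 4 of the 5 genes were matched.
miR-33-5p: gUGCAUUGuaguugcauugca
miR-33-3p: cAAUGUUUccacagugcaucac
miR-103-3p: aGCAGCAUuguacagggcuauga
miR-107-3p: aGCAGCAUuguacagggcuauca
miR-103-1-5p: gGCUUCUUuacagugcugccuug
miR-103-2-5p: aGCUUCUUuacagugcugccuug
miR-107-5p: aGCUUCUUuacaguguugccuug

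The 3p arms of Mir103-1 and Mir103-2 were identical over all 23 bases, and miR-107-3p differed from them by the substitution G22C, counted from the 5′ end. The seed GCAGCAU of miR-103-3p and miR-107-3p was found in no other mature microRNA of the table, and neither were the seeds UGCAUUG and AAUGUUU of Mir33. The 5p arms of Mir103-1, Mir103-2 and Mir107 shared the seed GCUUCUU with one another, and miR-103-1-5p differed from miR-103-2-5p by G1A. From miR-103-2-5p, miR-107-5p differed by C16U. Among 2202 annotated microRNA hairpins, a read that starts at the first base of miR-107-3p had to reach base 22 to match Mir107 alone. No read within miR-103-3p could be placed in Mir103-1 or in Mir103-2 alone. For both Mir33 arms the first 15 bases occurred in no other hairpin.

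The hairpins of the Pank microRNAs are shown to locate the bases that differ outside the mature arms, with the mature arms in capitals.
Mir103-1: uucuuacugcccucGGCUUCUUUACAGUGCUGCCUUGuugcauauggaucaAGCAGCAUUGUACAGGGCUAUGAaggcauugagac
Mir103-2: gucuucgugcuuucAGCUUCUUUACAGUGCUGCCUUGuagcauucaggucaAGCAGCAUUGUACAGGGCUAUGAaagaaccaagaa
Mir107: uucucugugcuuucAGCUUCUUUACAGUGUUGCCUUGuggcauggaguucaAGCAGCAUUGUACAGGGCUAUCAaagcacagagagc

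Mir103-1 and Mir103-2, both 86 bases long, were 17 single-base changes, insertions or deletions apart, and their longest shared run of 27 bases held the whole 3p arm, 3 bases before it and 1 base after it. Mir107, 87 bases long, was 14 changes away from Mir103-2 and 17 from Mir103-1. Mir33, at 69 bases, shared no run longer than 8 bases with any of them. Reads that match several loci stand on a line of their own in the tables, at 30.0% of reads in replicate 1 and 31.8% in replicate 2. A miR-103-3p read that ends within the shared run matches both genes and would belong on that line, so the counts of Mir103-1 and Mir103-2 may be too low and are not the level of miR-103-3p. The genes these reads came from are not given, so their part was not tested.

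All 4 named genes, and Mir378a itself, lay within introns on the strand of their host, by the GENCODE M21 annotation of the mm10 build. Mir33 (ENSMUSG00000065465.1, chromosome 15, 82198122 to 82198190, plus strand) was in intron 16 of a Srebf2 transcript of 19 exons, 335 bases after the upstream exon. Mir107 (ENSMUSG00000065594.1, chromosome 19, 34820687 to 34820773, minus strand) was in intron 5 of Pank1, 326 bases after the upstream exon. Mir103-2 (ENSMUSG00000065563.1, chromosome 2, 131288052 to 131288137, plus strand) was in intron 5 of Pank2, 454 bases after the exon, and Mir103-1 (ENSMUSG00000065553.1, chromosome 11, 35782396 to 35782481, plus strand) in intron 5 of Pank3, 688 bases after it. The transcripts of all 3 Pank hosts had 7 exons, so the microRNA held the same place in each. Mir378a (chromosome 18, 61397835 to 61397900, minus strand) was in intron 1 of Ppargc1b, whose transcript had 12 exons. Gm25301 (ENSMUSG00000093026.1, 61397813 to 61397925) covers the same place on the plus strand, against the host. Levels of the host messenger RNAs were not measured.

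**Figure D1:**
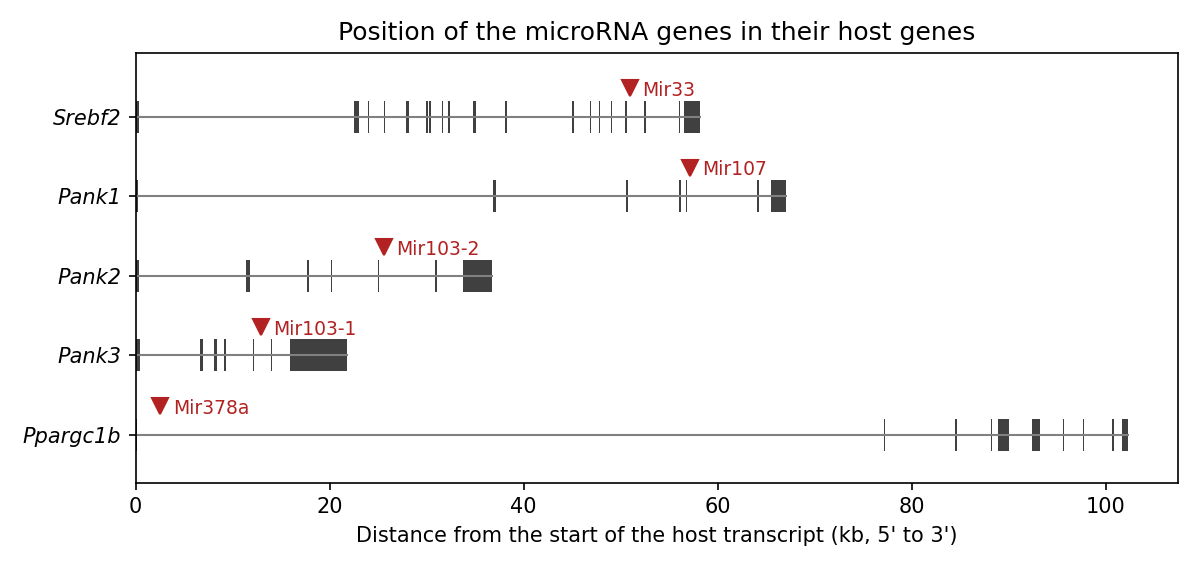
Position of each microRNA gene (red triangle) along its host transcript, with exons as dark bars, by distance in kb from the start of the transcript. Each microRNA lies in an intron, the Pank microRNAs in intron 5 and Mir378a in intron 1.

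The entry Gm25301 was the most abundant of the 5, and none of its reads lay on its own strand. It had 0 sense reads in both libraries, and 32680 opposite-strand reads in replicate 1 and 23880 in replicate 2. These reads lie on the strand of Mir378a, whose 66 bases match the reverse complement of Gm25301 in full, while the tables, made with annotation M4, hold no row of the name Mir378a. They amounted to 5125 CPM in replicate 1 and 5791 CPM in replicate 2 (counts scaled to a gene total of 1e+06), a mean of 5458 ± 471 (SD, n = 2). That was 30.3 times the median of 180 CPM over the 347 genes with at least 10 counts in each library, called detected here. Gm25301 ranked 33rd of all genes by its mean, at 36 in replicate 1 and 32 in replicate 2. It held 19.4% of all opposite-strand counts in replicate 1 and 21.3% in replicate 2.

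Mir107 of Pank1 was at 1433 CPM (9140 counts) in replicate 1 and 1488 CPM (6138 counts) in replicate 2, a mean of 1461 ± 39.0 (SD, n = 2). It ranked 85th, with 84 detected genes above it and 262 below, and its reads were all on the sense strand. Since the first 21 bases of miR-107-3p are also in miR-103-3p, shorter reads of this arm match several loci, and this level too may be too low.

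Mir103-2 of Pank2 was at 49.1 CPM (313 counts) in replicate 1 and 47.5 CPM (196 counts) in replicate 2, a mean of 48.3 ± 1.10 (SD, n = 2). Mir103-1 of Pank3 had 28 counts in replicate 1 and 6 in replicate 2, which is 4.39 and 1.45 CPM, and it fell short of 10 counts in replicate 2. Mir103-2 was the higher of these genes in both libraries, by 11.2-fold in replicate 1 (95% exact interval 7.58 to 17.1) and 32.7-fold in replicate 2 (14.7 to 90.1). This ratio is that of the reads placed in each gene. Mir107 held 96.4% of the placed counts of the Pank-hosted genes in replicate 1 and 96.8% in replicate 2. By placed reads, it lay 29.2-fold above Mir103-2 in replicate 1 (26.1 to 32.8) and 31.3-fold in replicate 2 (27.2 to 36.3). A read within the arm that is identical in Mir103-1 and Mir103-2 cannot be placed in either gene alone. A full-length read of the matching Mir107 arm can be placed. The share and these ratios therefore do not compare the levels of the mature microRNAs, which was not tested.

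Mir33 of Srebf2 was at 44.7 CPM (285 counts) in replicate 1, with a 95% exact interval of 39.7 to 50.2, and at 34.9 CPM (144 counts) in replicate 2, with an interval of 29.4 to 41.1. Its mean of 39.8 ± 6.91 CPM (SD, n = 2) ranked 234th and was 0.221 times the median of detected genes. Both mature arms of Mir33 are unique among the hairpins. The limit on the Pank microRNAs, from sequence shared between hairpins, thus does not apply to this count. Matches outside the annotated hairpins were not tested.

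**Figure D2:**
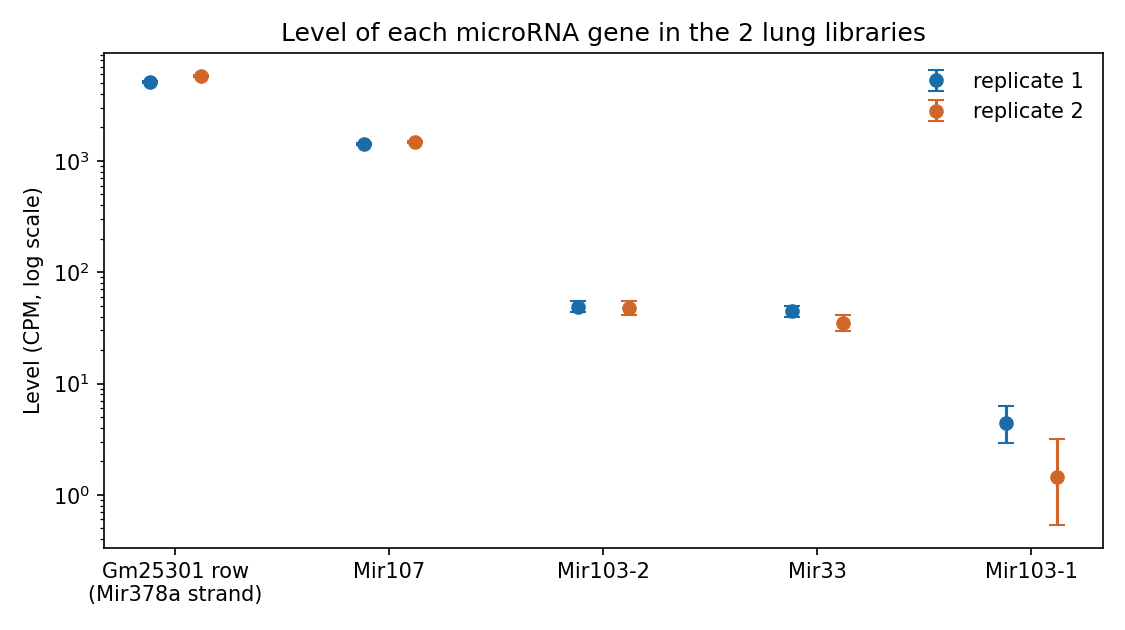
Level in CPM (log axis) of the 5 genes in replicate 1 (blue) and replicate 2 (orange), with 95% exact intervals that cover counting error only. Gm25301, on the Mir378a strand, lies at 5125 CPM or more in both libraries, Mir107 between 1433 and 1488 CPM, and Mir103-1 below 5 CPM.

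By placed reads, the order was Gm25301, Mir107, Mir103-2, Mir33 and Mir103-1 by the means and in each library. The neighbours Mir103-2 and Mir33 were not separable in replicate 1, where their ratio was 1.10 with an interval of 0.932 to 1.29, while in replicate 2 it was 1.36 (1.09 to 1.70). Per 100 bases of the annotated gene, Mir33 was at 57.7 ± 10 CPM and Mir103-2 at 56.2 ± 1.28. On this scale the pair changes order and differs by less than the SD of Mir33, though by more than that of Mir103-2 (n = 2). Mir107 was then at 1679 ± 44.8 CPM and Mir378a, taken as 66 bases long, at 8270 ± 713 (SD, n = 2), each above the next by more than its spread. With the annotated length of Gm25301 the latter was 4830 ± 417. Small RNA under 30 bases was sequenced, so counts need not follow the annotated length. Gm25301 lay 3.58-fold above Mir107 in replicate 1 (95% exact interval 3.49 to 3.66) and 3.89-fold in replicate 2 (3.78 to 4.0), on counts without length. Together the 5 genes held 0.666% of gene counts in replicate 1 and 0.736% in replicate 2 (mean 0.701% ± 0.050, SD, n = 2). Gm25301 accounted for 77.0% and 78.6% of that sum.

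**Figure D3:**
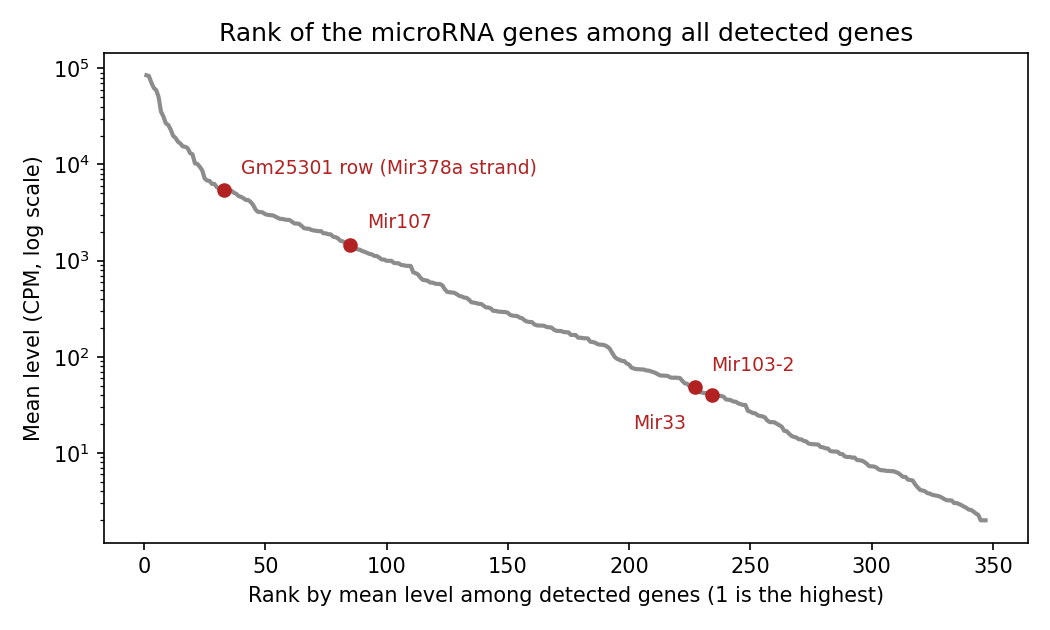
Mean level in CPM (log axis) of the 347 detected genes in order of rank, with the metabolic-host microRNAs in red. Gm25301 and Mir107 stand at ranks 33 and 85, and Mir103-2 and Mir33 at 227 and 234.

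Other microRNAs in introns of protein-coding genes on the host's strand numbered 650, of which 121 were detected, with a median of 134 CPM. Gm25301 had 11 of these 121 above it and Mir107 25, while Mir103-2 had 71 and Mir33 72 above it. The most abundant of the intronic genes were Mirlet7g (62701 CPM ± 2333, SD, n = 2), Mir335 (50501 ± 1627) and Mir26b (31561 ± 382), hosted by Wdr82, Mest and Ctdsp1. By placed reads, Gm25301 and Mir107 thus lay in the upper part of this list, and Mir103-2 and Mir33 in the lower part.

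The Pank microRNAs were next set beside the miR-15 genes, which share the motif AGCAGC near their 5′ end. Capitals mark the motif, which starts at base 1 of miR-103-3p and miR-107-3p and at base 2 of the others, so the seeds are offset by 1 base.
miR-103-3p: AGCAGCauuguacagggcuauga
miR-107-3p: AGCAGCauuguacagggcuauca
miR-15a-5p: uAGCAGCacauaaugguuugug
miR-195a-5p: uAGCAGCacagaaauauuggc
miR-322-5p: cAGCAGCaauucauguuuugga
miR-503-5p: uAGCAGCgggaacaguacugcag

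Of 1679 mature microRNA names in the RefSeq table, 13 (0.774%) held the motif at base 1 or 2 on their own strand, and miR-103-3p and miR-107-3p were the 2 with it at base 1. All 7 genes of the group in the tables were detected, namely Mir15a, Mir15b, Mir16-1, Mir16-2, Mir195a, Mir322 and Mir503. These microRNAs restrain the cell cycle. Mir322 led with 84676 CPM ± 2070 (SD, n = 2), followed by Mir15a (4276 ± 519) and Mir195a (2089 ± 302). Mir107 lay below 5 of the 7 and above Mir15b (1176 ± 140) and Mir16-2 (393 ± 21.2). Mir16-1 and Mir16-2 share the miR-16-5p arm, so their counts, like that of Mir107, may be too low, and so may the share of the group. The group of 7 held 9.66% ± 0.204 of gene counts, against 0.151% ± 0.00358 for the 3 Pank-hosted genes (SD, n = 2), whose counts may be too low as well. Mir497 has no row of its own in the tables.

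By placed reads, the other miR-378 genes were far below the Mir378a strand. Their mature sequences are shown with the seed in capitals, to set beside one another the letters that decide which gene a read matches.
miR-378b: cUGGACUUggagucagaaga
miR-378c: aCUGGACUuggagucagaagc
miR-378d: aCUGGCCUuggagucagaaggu

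Mir378d was at 11.8 CPM in replicate 1 and 8.97 CPM in replicate 2, Mir378c at 6.59 and 6.06, and Mir378b at 1.57 and 2.42. All 3 were detected, and none passed the exact binomial test between the libraries described below, which 47.0% of all detected genes passed. Their counts in replicates 1 and 2 were only 75 and 37 (Mir378d), 42 and 25 (Mir378c) and 10 and 10 (Mir378b). At such counts a failed test does not show equal levels. From miR-378c, miR-378d differed by A6C and C21G, and the seeds of all 3 were different. Their hairpins shared runs of up to 20 bases with Mir378a (20 for Mir378c, 19 for Mir378b and 15 for Mir378d), so reads within those runs can match another gene. From its first base, a read had to reach the last base of miR-378b (base 20) or miR-378c (base 21) to match that gene alone. For miR-378d the first 15 bases were enough. The counts of Mir378b and Mir378c may therefore be too low, and so may that of Gm25301.

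**Figure D4:**
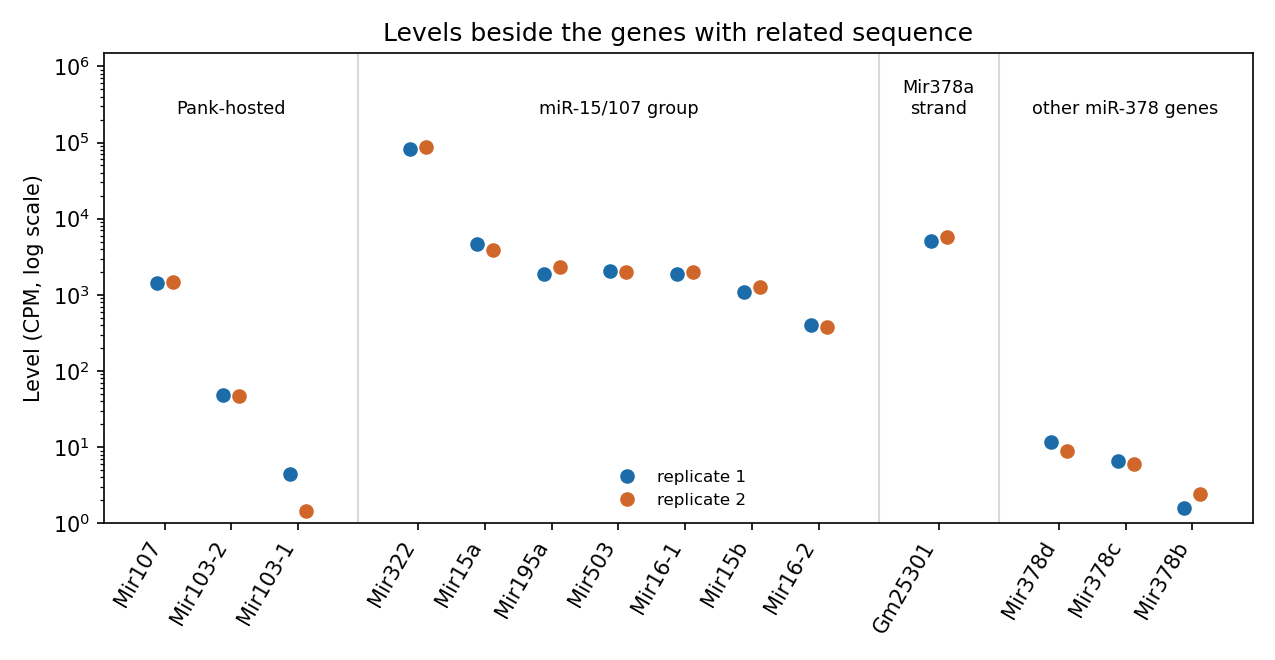
Level in CPM (log axis) of the Pank-hosted genes, the miR-15 group, Gm25301 (Mir378a strand) and the other miR-378 genes in replicate 1 (blue) and replicate 2 (orange). By placed reads, Mir107 lies among the lower members of the miR-15 group, and Gm25301 lies far above Mir378b, Mir378c and Mir378d.

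A list of 28 other microRNAs known for acting on cholesterol, lipid or glucose metabolism gave a wider frame, and 24 of them were detected, with a median of 261 CPM. It was led by Mir143, which acts on insulin signalling in liver (71247 CPM ± 1447, SD, n = 2), Mir26b (31561 ± 382) and Mir130b (3397 ± 175). By placed reads, Gm25301 would stand between Mir26b and Mir130b in that list. Of the 28 genes, 10 share 22 bases with another hairpin, so their counts and the median may be too low, and the order may differ. Mir148a, which lowers the LDL receptor and Abca1, was at 635 and 617 CPM, and Mir122 of liver at 111 and 601 CPM, in replicates 1 and 2. Mir33 lay below both in each library.

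The 2 libraries were compared for every detected gene with a two-sided exact binomial test against the library totals and Benjamini-Hochberg adjustment. Such a test sets a difference against counting error alone and compares these pools, not conditions. By it 47.0% of the 347 detected genes differed, 16.4% higher in replicate 1 and 30.5% higher in replicate 2, and among genes at 1000 CPM or more the share was 85.9%. Of the 5 genes, 4 were tested and 3 passed, a count to be read against those shares, since 2 of the 3 are above 1000 CPM.

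Gm25301 was 0.885-fold in replicate 1 over replicate 2 (95% interval 0.870 to 0.90, adjusted p = 2.4e-45 by the exact binomial test), so the Mir378a strand was higher in replicate 2. With edgeR's exact test, which allows for a spread between libraries, it did not pass (log2 ratio -0.14, adjusted p = 1). That spread was estimated from the same 2 libraries, so the differences tested are part of it, and 5 of 347 genes passed. A call lost by edgeR's test therefore decides nothing, here or for the genes below. Over the alternatives the adjusted p ran between 4.9e-45 and 1. Its log2 ratio of -0.18 was close in size to the median size of 0.16 over detected genes, and 156 of the 347 moved further.

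Mir33 was 1.28-fold higher in replicate 1 (95% interval 1.04 to 1.57, adjusted p = 0.0343 by the exact binomial test). Its intervals in the libraries, given above, overlap slightly. The call was lost when genes with few counts were also tested (log2 ratio 0.36, adjusted p = 0.0643) and with edgeR's exact test (log2 ratio 0.39, adjusted p = 1), and over the alternatives the adjusted p ran between 0.0146 and 1. At a log2 ratio of 0.36 Mir33 had moved further than all but 71 detected genes. Among the 61 detected genes between 20 and 80 CPM, where Mir33 lies, 21.3% passed the test.

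Mir107 was 0.963-fold in replicate 1 over replicate 2 (95% interval 0.932 to 0.995, adjusted p = 0.0487 by the exact binomial test). That call was lost under TMM scaling (log2 ratio -0.02, adjusted p = 0.575), DESeq2 size factors (-0.003, 0.935), testing of genes with few counts (-0.05, 0.0900) and edgeR's exact test (-0.02, 1). Mir103-2, at 1.03-fold (0.861 to 1.24), did not pass (adjusted p = 0.822 by the exact binomial test). Mir103-1 was 3.02-fold higher in replicate 1 with an interval of 1.23 to 8.91, and with 6 counts in replicate 2 it missed the minimum of 10. When every gene with a count was tested, its adjusted p was 0.0551 by the exact binomial test.

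**Figure D5:**
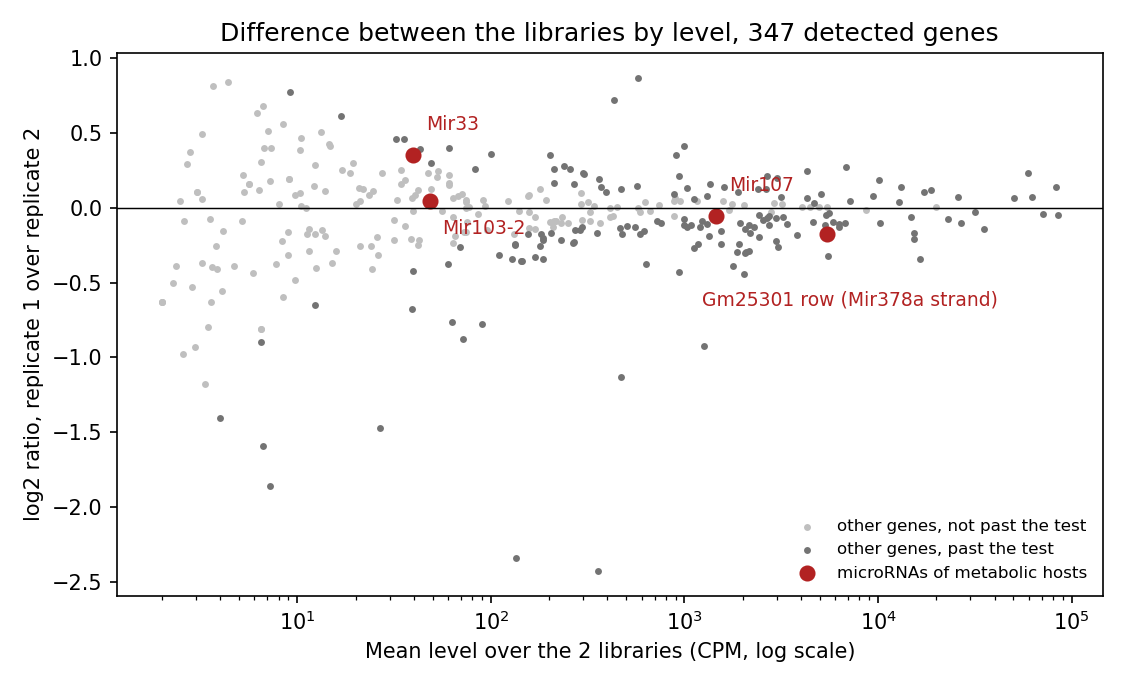
log2 ratio of replicate 1 over replicate 2 against the mean level in CPM (log axis) for the 347 detected genes, with dark points for other genes past the exact binomial test and the metabolic-host microRNAs in red. Mir33 lies at 0.36, Mir103-2 at 0.05, Mir107 at -0.05 and Gm25301 at -0.18, all within the cloud of other genes.

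Among the related genes, 2 of the 7 detected in the miR-15 group were higher in replicate 1, 4 were higher in replicate 2 and 1 did not pass, with a median log2 ratio of -0.05, equal to that of all detected genes. The group's split was 3 and 4 under TMM scaling and 3 and 2 with DESeq2 size factors. In the list of 28 metabolic microRNAs, 1 was higher in replicate 1 and 15 were higher in replicate 2, with 8 not past the test and a median of -0.11. That split was 2 and 10 under TMM scaling and 4 and 10 with DESeq2 size factors, and the split over all detected genes, 57 and 106, became 74 and 84, and 78 and 75. Of the 121 intronic genes, 24 were higher in replicate 1 and 32 in replicate 2 (median -0.02), which became 32 and 28 with TMM scaling and 33 and 23 with DESeq2 size factors.

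By level over both libraries, the detected genes nearest to each member were named by their distance in log2 CPM over these 2 libraries. They were Mir744 (distance 0.0583) and Mir106b (0.0940) for Gm25301, Mir181a-1 (0.123) and Mir205 (0.164) for Mir107, Mir26a-2 (0.0691) and Mir1981 (0.143) for Mir103-2, and Mir19a (0.153) and Mir668 (0.197) for Mir33. With 2 libraries this says only that their placed reads, as CPM, were close in both. Mir181a-1 and Mir26a-2, like Mir107 and Mir103-2, share 22 bases with another hairpin, so their counts may be too low.

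Markers of lung cells were abundant, with 7 of 7 epithelial genes detected (4.98% of gene counts in replicate 1 and 5.52% in replicate 2), Mir126a of endothelium at 8.73% and 7.91%, and 6 of 6 mesenchymal genes detected (8.05% and 8.28%). Some markers of other tissues differed between the libraries alongside Gm25301 and Mir33. The 4 liver genes, of which 3 were detected, summed to 0.0216% of gene counts in replicate 1 and 0.0695% in replicate 2. That difference lay in Mir122, at 111 and 601 CPM, while Mir192 (65.2 and 62.3 CPM) and Mir194-2 (37.3 and 31.3 CPM) did not pass the test. The muscle list, with 5 of 8 detected and Mir1a-1, Mir133a-1 and Mir133a-2 at 0 counts, summed to 0.108% and 0.120%. Within it Mir206 was at 294 and 643 CPM and Mir208a at 536 and 324 CPM. The brain list, with 2 of 7 detected and Mir124a-1 and Mir9-2 at 0, summed to 0.00814% and 0.0158%. All 3 muscle genes at 0 and all 7 brain genes share 22 bases with another hairpin, so a 0 there does not show absence. The red-cell list (3 of 3) summed to 0.105% and 0.0660%, and the leukocyte list (3 of 3 with an entry) to 0.0800% and 0.0856%. That sum leaves out Mir142, which is listed but has no entry of its own. Mir142b, with at least 90% of its reads on the Mir142 strand, was at 1149 CPM in replicate 1 and 1258 CPM in replicate 2. Mir1a-2 of muscle and Mir9-1 of brain have no entry either. The part of these marker lists in the differences of Gm25301 and Mir33 was not tested.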

How the data were processed

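Read counts per microRNA gene were used as deposited, with no normalization, and refer to assembly mm10 and annotation M4, per the file headers. No aligner, counter or trimming step is named by the labels or headers. By their values, the 3 count columns are the reads without strand (the sum of the others, used here), sense and opposite. The 4 summary lines were left out of gene totals and tests, and enter only shares of all reads.

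CPM used gene totals of 6376715 (replicate 1) and 4123748 (replicate 2), so that 0 counts allow 0.470 and 0.727 CPM (3 counts). The 95% limits (Clopper-Pearson, exact) cover counting error only: no molecular identifiers are named, so PCR copies may be counted. Names and positions came from GENCODE M21 (1894 of 1973 identifiers matched), printed sequences from RefSeq without chromosome 18. The p-values compare the reads of these pools. The threshold was an adjusted p of 0.05. Tools were Python 3.11.15, scipy 1.17.1, R 4.3.3, edgeR 4.0.16 (TMM, exact test at the common dispersion) and DESeq2 1.42.0 (size factors). The binomial step was tested on simulated data with counting error only. Those data had no spread between libraries, so they do not show how the step behaves under one.

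The members and lists were chosen with earlier results of these data known. Named genes are the members, the 3 most abundant of each list and the 2 nearest in level to each detected member; Mir148a, Mir122, Mir15b, Mir16-1, Mir16-2, Mir503 and single marker genes were named after their values were seen. Alternatives covered column, scaling, filter, pseudocount, test and each replicate left out; levels per 100 bases were added after seeing the data.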

Additional observations from a re-analysis of the deposited data

How the results depend on the processing

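The share of gene counts held by the 5 genes (0.701%) was 0.159% in the sense-strand column, 20.4% of the opposite-strand column, 0.345% of all reads the tables account for and 0.766% without Mir322, each time by the construction of the denominator or column. Leaving out each replicate gave 0.666% to 0.736%. The 163 genes that differed between the libraries became 8 of 15 in the opposite-strand column, where fewer genes were tested, and 5 of 347 with edgeR's exact test (13 at an unadjusted p under 0.05), whose dispersion comes from the same libraries. They were 153 to 160 under the other 4 alternatives. None of the 26 alternative values of the members' log2 ratios turned direction, and 7 calls were lost, of Mir107 in 4, Mir33 in 2 and Gm25301 in 1. Members without counts in a strand column gave no ratio there, and a difference between libraries has no value without either replicate. At 28 and 6 counts, the interval of the ratio of Mir103-1 is wide. With 1 group there was no pairing to test.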

Other observations

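Gm25301 was 1 of 10 entries with at least 10 opposite-strand counts in each library and at least 90% of their reads on the opposite strand. GENCODE M21 places another microRNA gene on that strand in all 10, and none of those genes has a row in the tables. By mean level Gm25301 (Mir378a strand) was the highest of them, at 5458 CPM ± 471 (SD, n = 2). Next came Gm24321, opposite Mir409, at 5091 ± 239, and Gm25927, opposite Mirlet7e, at 4960 ± 10.8. In replicate 1 Gm24321 was the highest, at 5260 CPM against 5125 CPM for Gm25301. Another of the 10, Mir497b, lies opposite Mir497 of the miR-15 group and was at 2173 ± 180 CPM, close to Mir195a and Mir503. Opposite-strand reads made up 2.64% of gene counts in replicate 1 and 2.71% in replicate 2.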
